A study of Homo sapiens with 16 samples.

Results

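The 9 genes described here encode the signalling chains and co-receptors of the antigen receptors of T and B lymphocytes: CD3D, CD3E, CD3G, CD247, CD4, CD8A, CD8B, CD79A and CD79B. They were taken by name from 19970 RefSeq protein-coding genes on chromosomes 1 to 22 and X, and deposited peaks were looked up over each gene body and within 2 kb of either annotated end. The peaks come from chromatin immunoprecipitation with sequencing (ChIP-seq) in 2 human liver lines. HepG2, a liver carcinoma line, has 2 libraries of JARID2. THLE-2, an immortalised line of non-tumour liver epithelial cells, has 2 libraries each of JARID2, EZH2 and the histone mark H3K27me3. Every immunoprecipitated (IP) library has its own input library, and all cells were fixed with formaldehyde, with no other treatment given in the labels. The series calls the 2 replicates of a group biological. Each line is a single cultured cell population, neither line is a lymphocyte, and no RNA was measured here, so neither the identity of the lines nor the expression of these genes was checked.

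T and B cells recognise antigen with receptors whose antigen-binding chains have almost no signalling part of their own. In T cells the CD3 delta, epsilon and gamma chains and the zeta chain (CD247) pass the signal on through tyrosine motifs in their tails, and CD4 or CD8 binds the MHC molecule alongside and brings the kinase LCK. In B cells CD79A and CD79B do the same work for membrane immunoglobulin. Polycomb repressive complex 2 keeps genes of other lineages silent: EZH2 is the subunit that places methyl groups on lysine 27 of histone H3, trimethylation there (H3K27me3) goes with silent chromatin, and JARID2 is a cofactor that helps the complex bind DNA. EZH2 in mammals is typically found at stretches of DNA rich in the dinucleotide CpG.

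In THLE-2, H3K27me3 peaks lay over all 7 T cell genes in both replicates, against 14.4% of all protein-coding genes, and over neither B cell gene. At CD4 and CD8B the replicates shared no covered base. EZH2 was called in both replicates at 1 gene, CD8A, against 5.84% of all genes, and there inside the gene and not at its annotated ends. JARID2 was called at CD247 in 1 HepG2 library (37.5% of all genes had a peak in it), and at CD247 and CD8A in 1 THLE-2 library (13.6% of all genes), each time in the body. The other HepG2 and THLE-2 JARID2 libraries had none over the 9 genes, against 6.92% and 13.9% of all genes. CD79A and CD79B had no peak of any of the 8 libraries over the gene or within 2 kb, as held for 39.0% of all protein-coding genes.

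Promoter sequences for genes with and without a peak at the start follow, from RefSeq on GRCh38.p14, each running 5′ to 3′ from 250 bases before a start to 50 after it. The capitals mark every CG dinucleotide, which reads the same on both strands. They are the CD3D start, under H3K27me3 in both replicates, an internal and the outermost CD8A start, of which the internal one was under EZH2, and the CD79A start, which had no peak.
CD3D (chr11:118342656-118342955, minus strand): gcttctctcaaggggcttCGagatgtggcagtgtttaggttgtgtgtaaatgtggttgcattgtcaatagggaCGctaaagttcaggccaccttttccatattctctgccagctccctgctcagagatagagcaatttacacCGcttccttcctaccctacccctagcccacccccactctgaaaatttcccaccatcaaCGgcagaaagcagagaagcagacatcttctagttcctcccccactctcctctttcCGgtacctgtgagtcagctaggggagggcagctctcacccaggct
CD8A internal start (chr2:86790864-86791163, minus strand): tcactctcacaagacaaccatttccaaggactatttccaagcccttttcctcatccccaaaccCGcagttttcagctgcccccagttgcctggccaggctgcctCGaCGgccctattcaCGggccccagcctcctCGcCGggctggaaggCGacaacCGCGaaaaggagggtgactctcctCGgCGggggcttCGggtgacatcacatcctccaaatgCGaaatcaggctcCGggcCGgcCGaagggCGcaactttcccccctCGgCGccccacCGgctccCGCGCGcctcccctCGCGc
CD8A outermost start (chr2:86808347-86808646, minus strand): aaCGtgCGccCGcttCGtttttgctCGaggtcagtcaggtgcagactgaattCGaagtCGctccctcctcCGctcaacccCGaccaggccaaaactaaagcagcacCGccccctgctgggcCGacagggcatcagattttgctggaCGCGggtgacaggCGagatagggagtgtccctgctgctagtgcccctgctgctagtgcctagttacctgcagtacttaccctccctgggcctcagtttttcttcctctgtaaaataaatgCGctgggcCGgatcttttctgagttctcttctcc
CD79A (chr19:41877029-41877328, plus strand): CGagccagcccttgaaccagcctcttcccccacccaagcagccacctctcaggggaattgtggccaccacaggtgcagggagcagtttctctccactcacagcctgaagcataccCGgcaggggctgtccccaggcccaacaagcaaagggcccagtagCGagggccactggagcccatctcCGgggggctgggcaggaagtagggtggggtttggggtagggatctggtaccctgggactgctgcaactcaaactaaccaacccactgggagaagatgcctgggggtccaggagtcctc

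The RefSeq table held such windows for 4 of the 9 genes (CD3D, CD247, CD8A with 4 starts, CD79A), 7 windows in all. The CD3D window had 5 CpG, CD247 had 6 and CD79A had 4, against a median of 21 over 22131 windows of protein-coding genes. The CD8A internal window printed above had 25 CpG and the outermost one 16. Of the CD8A windows not printed, the other internal one, also under EZH2, had 6 and the other outer one 18. At least 1 CpG stood in 98.1% of all windows, and 29.9% had under 10. Windows under H3K27me3 in both replicates (446, or 2.02% of all) had a median of 4 CpG, with 4 in replicate 1 (562 windows) and 17 in replicate 2 (2481 windows, of which 35.8% had under 10). Windows under EZH2 in both replicates (864, or 3.90%) had a median of 28. The CD3D window sat near the median of the windows under H3K27me3 in both replicates, as did the CD247 and CD79A windows without a peak. Of the CD8A windows under EZH2, that with 25 CpG sat near the EZH2 median and that with 6 did not.

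By library, EZH2 lay over 2 of the 7 windows in each replicate, against 4.73% and 5.05% of all windows. H3K27me3 lay over 1 in replicate 1 (CD3D), against 2.54%, and over 5 in replicate 2 (CD3D and the 4 of CD8A), against 11.2%. JARID2 lay over 0 of 7 in every library, against 13.6% and 0.0813% of all windows in HepG2 replicates 1 and 2 (0.0407% in both) and 1.66% and 2.10% in THLE-2 (0.113% in both). These are descriptions of 7 windows, 4 of them from a single gene.

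The lists behind these calls differ in size. The IP libraries held 7.95 M to 39.0 M filtered tags (M for 1e+06) and 2081 to 90461 peaks on the chromosomes used, with 46173 and 90461 for H3K27me3 replicates 1 and 2. Fold is the authors' enrichment of a peak over local input, and the score is minus 10 times the log10 of the peak caller's p. Both describe a peak within its own list. The peaks of these genes numbered 1 in HepG2 JARID2 replicate 1, 3 in THLE-2 JARID2 replicate 2, 1 in each EZH2 library, and 19 and 37 in H3K27me3 replicates 1 and 2. All EZH2 and H3K27me3 peaks of these genes carried the authors' false discovery rate (FDR) of 100%, as did every H3K27me3 peak in the 2 lists. This FDR comes from exchanging IP and input, so these peaks stand on their p against local input alone.

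**Figure D1:**
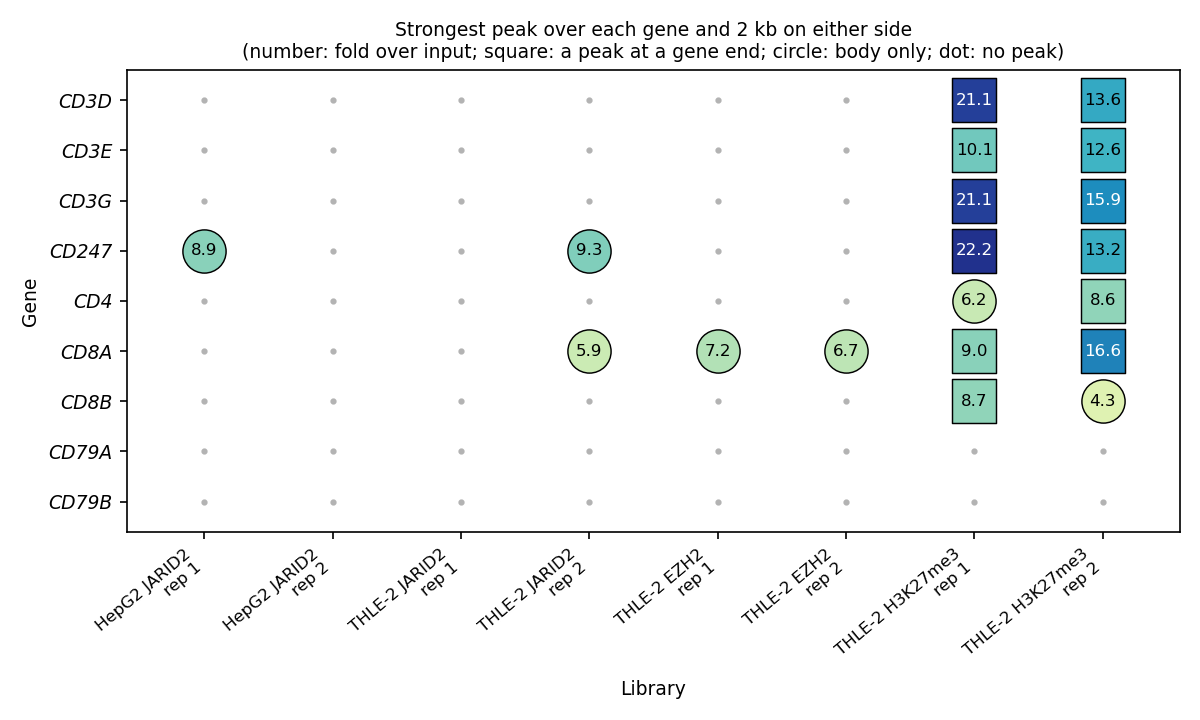
Strongest peak of each gene (rows) in each library (columns), over the gene body and 2 kb on either side. The number and colour are the fold over input, squares have a peak at a gene end, circles only in the body, and small dots had no peak. H3K27me3 fills 7 of 9 rows in both replicates, from 4.33 to 22.21, and the CD79 rows are empty.

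At gene ends, 5 of the 9 genes (CD3D, CD3E, CD3G, CD247 and CD8A) had an H3K27me3 peak in both THLE-2 replicates, against 6.75% of all protein-coding genes. By replicate the count was 6 in each, against 7.70% of all genes in replicate 1 and 19.1% in replicate 2. CD8B was the gene added in replicate 1 and CD4 in replicate 2. In all 5 genes the peaks of the replicates lay at the same end, which held for 6.41% of all genes. Over the body and 2 kb on either side, 7 of 9 were called in each replicate and in both, against 15.2%, 24.9% and 14.4% of all genes. That window is longer for longer genes, which ran from 3.59 kb in CD79B to 87.9 kb in CD247. In 6 of the 9, all but CD8A among the T cell genes, this came with EZH2 in neither replicate, against 9.09% of all genes. Of the 2876 genes with H3K27me3 in both replicates, 1816 had EZH2 in neither. Most genes of any kind lack EZH2, which was called over 7.29% and 9.74% of all genes in replicates 1 and 2. Genes with the mark lacked it less often than all genes did. The genes were chosen with earlier results of these data known and share loci, so no test was made of these counts.

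The share of bases under H3K27me3 peaks varied widely among the 7 T cell genes. With 2 kb on either side of each gene included, CD3D was covered to 79.1% and 94.5% in replicates 1 and 2, CD3G to 52.3% and 55.7%, and CD3E to 33.9% and 40.6%. CD247 had 34.9% and 46.4%. These 4 genes stood above 94.4% or more of all protein-coding genes in each replicate. The co-receptors were lower in replicate 1, with 4.86% in CD4, 7.45% in CD8A and 7.47% in CD8B, while replicate 2 gave 21.4%, 55.8% and 9.70%. The median over the 9 genes was 7.47% and 40.6%, against 0% over all protein-coding genes in both replicates and a 90th percentile of 5.39% and 21.9%. Replicate 2 was the higher one in all 7 T cell genes, and its list covers 153 Mb in all, against 91.4 Mb in replicate 1. The part that list size has in the difference was not tested.

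**Figure D2:**
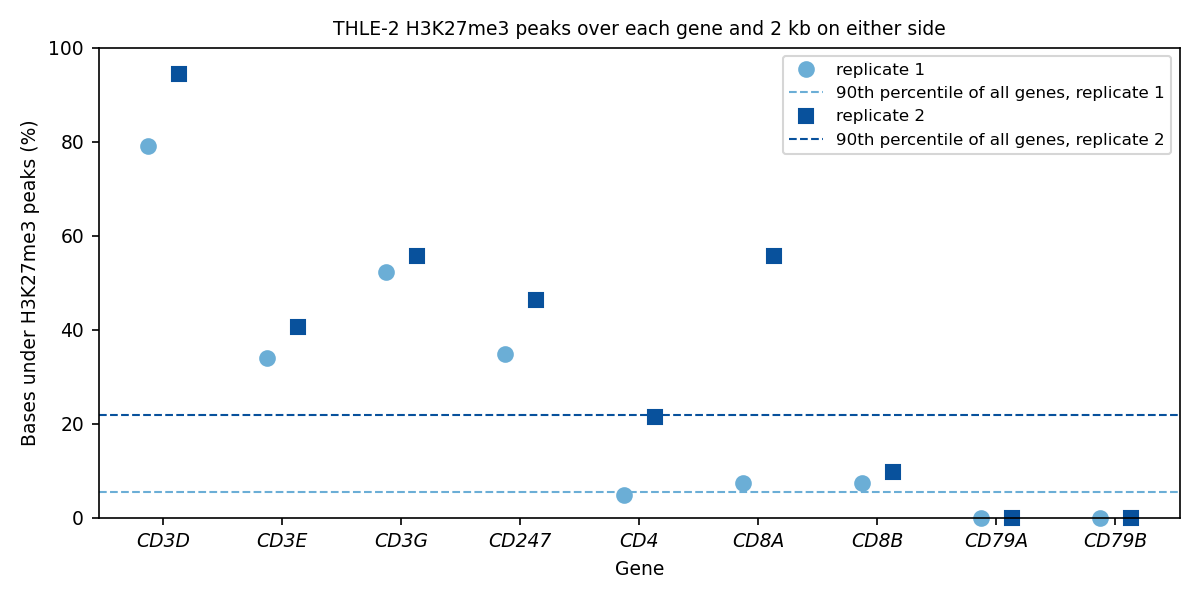
Percent of bases under H3K27me3 peaks in THLE-2 (vertical axis) for each gene with 2 kb on either side, replicate 1 as circles and replicate 2 as squares. Dashed lines are the 90th percentile of all protein-coding genes, 5.39% and 21.9%. CD3D, CD3E, CD3G and CD247 lie above both lines in both replicates. CD8A lies above the line of the same replicate in both, and CD8B in replicate 1 alone. The CD79 genes are at 0.

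The CD3 genes lie together on chromosome 11: CD3E at 118304730 to 118316173, then CD3D at 118338954 to 118342705 and CD3G at 118344344 to 118355161. CD3D and CD3G, which encode the delta and gamma chains that each pair with CD3 epsilon, are 1.64 kb apart, and a gap of 22.8 kb separates CD3E from CD3D. In replicate 1 the interval between CD3D and CD3G carried a peak at 118342026 to 118344913 with a fold of 21.08, rank 119 of 46173 peaks by fold. Replicate 2 had a peak at 118337593 to 118344978 with a fold of 13.58, rank 5007 of 90461, which covered all of CD3D. The summits of these peaks were 20 bp apart, and both lay between the genes, 1596 and 1616 bp outside the CD3D start and within 50 bp of the lower-coordinate end of CD3G. CD3D and CD3G share this peak, so their gene-end values are a single measurement.

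The mark ran on through most of CD3G in both replicates. Further peaks inside CD3G had folds of 11.59, 12.23 and 14.0 in replicate 1, and 9.82, 15.87, 14.14 and 7.59 in replicate 2. When peaks less than 3 kb apart were joined, CD3D and CD3G fell in a single stretch of 5 peaks over 12.8 kb (118338240 to 118351007) in replicate 1 and of 6 peaks over 17.5 kb (118335211 to 118352759) in replicate 2. By length these ranked in the top 6.20% of 26495 stretches and the top 4.37% of 45233. Longer ones lay at CD247, but at different places in the replicates. That of replicate 1 was 21.4 kb (167491733 to 167513118, top 2.0%), where replicate 2 had stretches of 12.9 kb and 3.77 kb. That of replicate 2 was 24.2 kb (167463838 to 167488070, top 2.37%), where replicate 1 had one of 10.4 kb. CD3E had one of 22.1 kb in replicate 2 (top 2.84%) and none above 5.43 kb in replicate 1. The stretch over CD3D and CD3G ended inside CD3G in both replicates. Its far end, and UBE4A, a ubiquitin ligase gene 4.44 kb beyond it, had no H3K27me3 peak in either replicate.

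CD3E, the epsilon chain, carried the mark at both ends. At its lower-coordinate end replicate 1 had a peak at 118299954 to 118305383 (fold 9.31) and replicate 2 peaks at 118298827 to 118303966 (12.09) and 118304338 to 118305476 (7.34). Near its other end the folds were 10.14 in replicate 1 and 12.6 in replicate 2, with summits 701 bp apart. Replicate 2 had 3 further peaks in the body, with folds of 5.66, 6.47 and 11.34, the last within the span of the replicate 1 peak near that end. Outside the 2 kb window, EZH2 replicate 2 had a peak 3.12 kb below CD3E (fold 6.22), inside the H3K27me3 peaks of both replicates, and EZH2 replicate 1 had none there. A HepG2 JARID2 replicate 1 peak (fold 10.67) lay 2.07 kb beyond its other end, just outside the window.

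**Figure D3:**
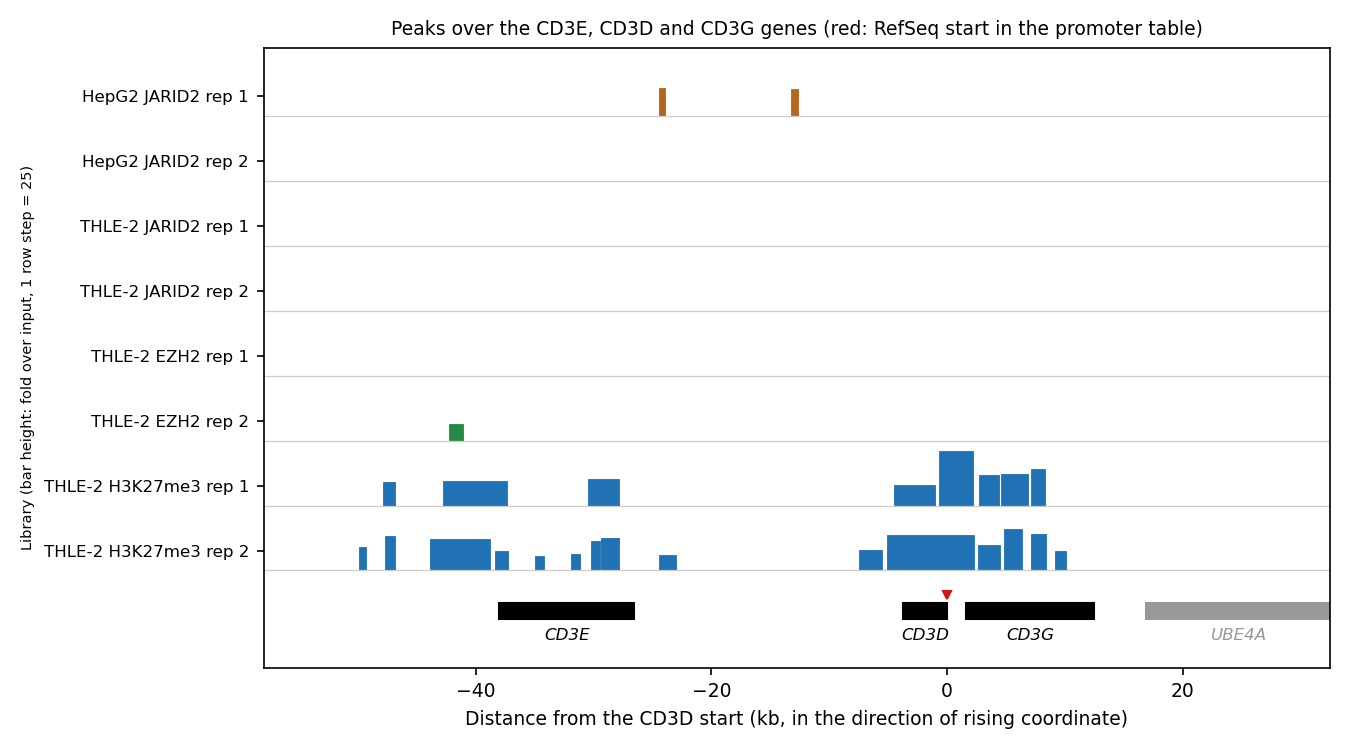
Deposited peaks around the CD3 genes by distance from the CD3D start (horizontal axis, kb) in the 8 libraries (rows), bar height giving fold over input. Black boxes are the CD3 genes and the red mark is the CD3D start. Both H3K27me3 rows show a block from CD3D into CD3G, highest at 21.08 and 15.87, and a separate group at CD3E, with no peak over UBE4A.

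CD247, the zeta chain gene on chromosome 1 (167430640 to 167518529, minus strand), carried the mark inside the gene more than at its start. Replicate 1 had 7 peaks and replicate 2 had 16. The strongest of replicate 1 ran from 167491733 to 167506241 over 14.5 kb, with a fold of 22.21 (rank 81 of 46173) and a score of 971.72 (rank 97). Replicate 2 split the same interval into 3 peaks with folds of 12.26, 8.53 and 13.24, the last with a score of 1094.48 (rank 879 of 90461). The nearest summits of the replicates there were 81 bp apart, at 167502004 and 167502085. A further block between 167472751 and 167483194 was present in both replicates, with folds of 7.59 to 13.04 in replicate 1 and 5.32 to 7.89 in replicate 2.

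At the CD247 start itself the promoter window of 300 bases had no peak in any library. The gene-end call rests on a peak that began 0.838 kb outside the start in replicate 1 (fold 6.80) and 0.897 kb outside it in replicate 2 (fold 6.27). Those folds were in the lower part of their lists, at 92.7% and 81.1% from the top. The other end had no peak in replicate 1 and a peak of fold 4.44 in replicate 2. POU2F1, a transcription factor gene 3.29 kb from CD247, and CREG1, 22.5 kb away on the other side, had none of their bases under H3K27me3 peaks in either replicate.

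CD4, the co-receptor of helper T cells on chromosome 12 (6789528 to 6820799), differed between replicates. Replicate 1 had a peak at 6813798 to 6815510 in the body (fold 6.20) and replicate 2 a peak at 6790226 to 6797761 at the lower-coordinate end (fold 8.64, score 569.39). The peaks did not overlap, so that CD4 counts over the gene but at no position. Its neighbour LAG3, an inhibitory receptor gene of T cells that binds the same MHC class, lies 11.1 kb away. LAG3 had no H3K27me3 peak at its ends and a JARID2 peak in THLE-2 replicate 2.

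**Figure D4:**
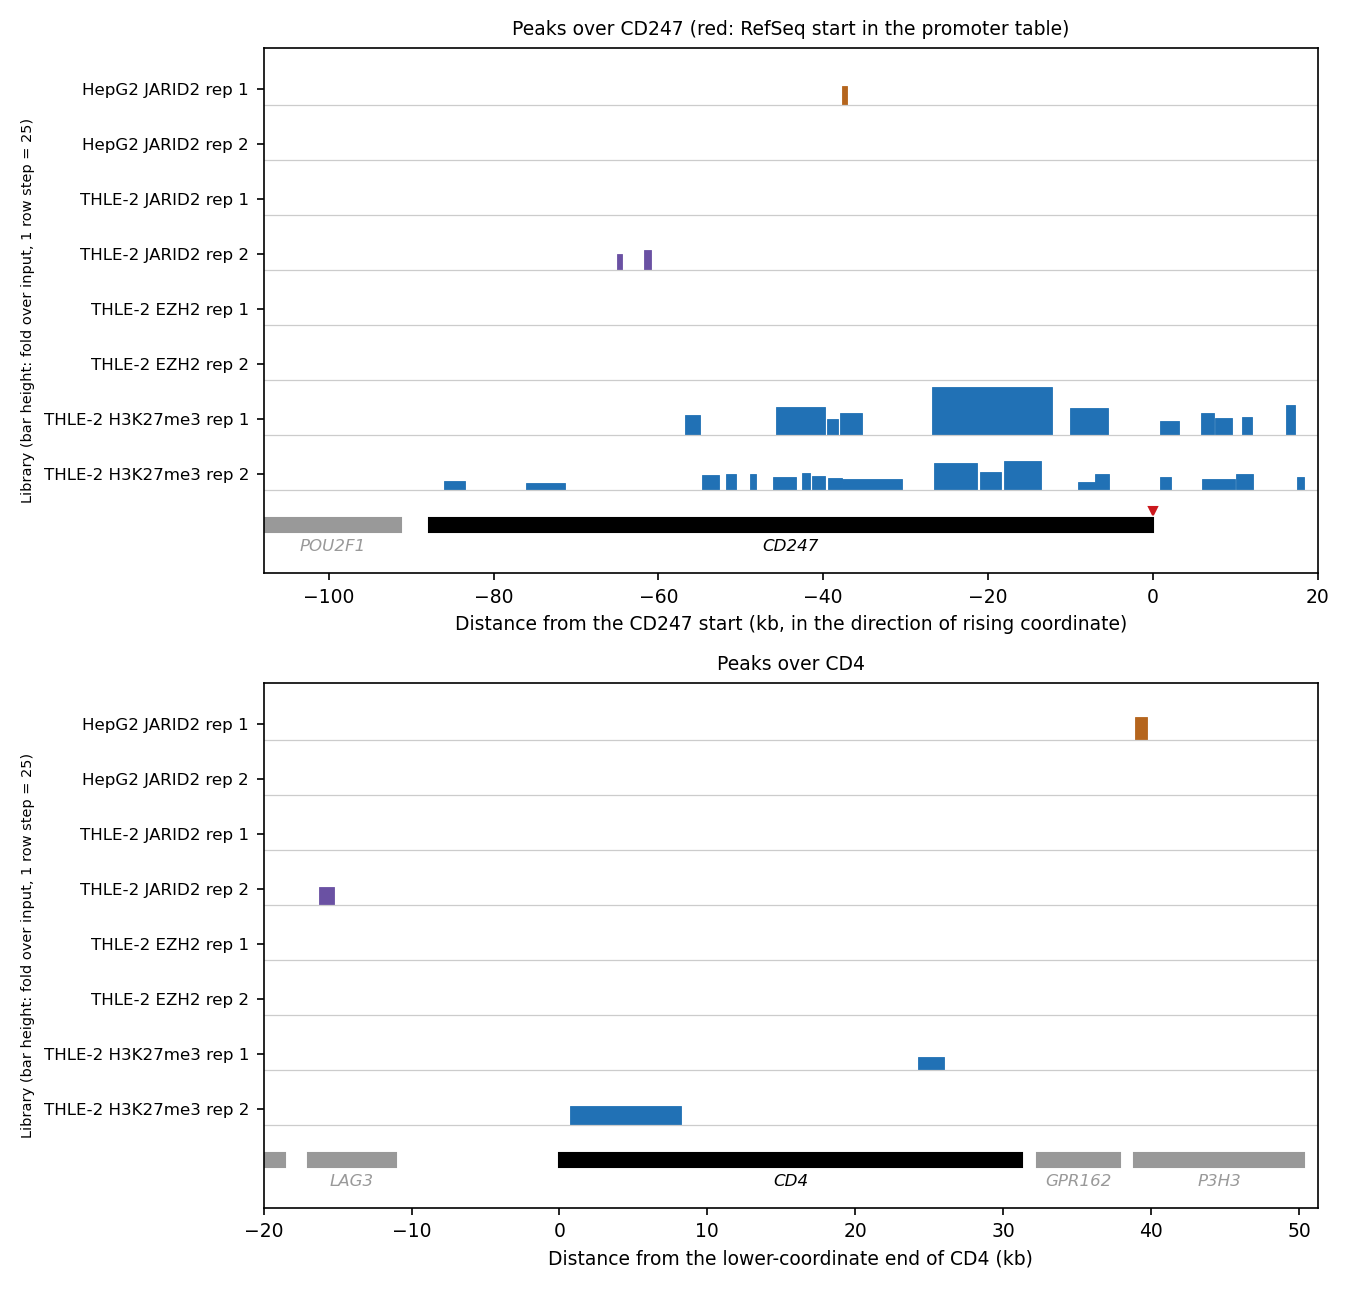
Deposited peaks at CD247 (top, distance from its start in kb) and CD4 (bottom, distance from its lower-coordinate end in kb) in the 8 libraries, bar height giving fold over input. At CD247 both H3K27me3 rows are highest in the body and not at the start, with folds of 22.21 and 13.24, and at CD4 the replicates have 1 peak each at different places.

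CD8A, the chain that gives CD8 its link to LCK, was the gene of the 9 with EZH2 over its body. H3K27me3 overlapped that site in replicate 2 alone. CD8A lies on chromosome 2 (86784605 to 86808396, minus strand). EZH2 had a peak at 86788247 to 86792267 in replicate 1 (fold 7.19, score 337.29, 686 tags) and at 86788141 to 86792555 in replicate 2 (fold 6.69, score 551.18, 785 tags). By fold these ranked 1344 of 2081 and 1799 of 3637, and by score 462 and 366, so the EZH2 peaks at CD8A were ordinary in fold and in the top 22.2% and 10.1% by score. Over the gene body or within 2 kb, CD8A was the 1 gene of 9 with EZH2 in each replicate and in both, against 7.29%, 9.74% and 5.84% of all genes. Within 2 kb of an end 0 of 9 had it, against 5.92% and 6.54% by replicate, 4.88% in both and 4.87% at the same end in both. Both EZH2 peaks covered 2 internal CD8A starts (86790913 and 86791680). Their summits were 108 bp apart, and 350 and 458 bp inside the start at 86790913, whose window with 25 CpG is printed above.

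H3K27me3 replicate 2 had a peak over the same stretch, at 86788143 to 86792929, with 1948 tags and a score of 2494.41, rank 108 of 90461 by score. Replicate 1 had no peak there. Over all promoter windows, 685 of the 864 windows under EZH2 in both replicates (79.3%) were under H3K27me3 in replicate 2 and 20 (2.31%) in replicate 1, so that CD8A was like most windows under EZH2 in this. The EZH2 calls at CD8A do not rest on either H3K27me3 library. Replicate 2 also covered the outermost CD8A starts with a peak at 86805911 to 86810242 (fold 10.09, score 1029.75), and replicate 1 again had none. Both replicates had a peak in the body, with folds of 8.97 and 11.19. Both also had a peak just beyond the lower-coordinate end, where transcription ends, with folds of 7.24 and 7.27 and summits 67 bp apart. The replicate 1 peak beyond that end was weak, with 34 tags and a score of 50.24, rank 45908 of 46173. The replicate 2 peak there had a score of 79.53. Replicate 2 alone had a peak nearer that end (86783372 to 86784424), the strongest of the gene by fold (16.57). The gene-end call of CD8A in both replicates rests on peaks beyond its lower-coordinate end and not on a start. With a score of at least 100 required, CD8A lost this call and 4 genes kept theirs.

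CD8B, the partner chain of CD8A in most cytotoxic T cells, lies 6.97 kb away (86815369 to 86861886). Its strand was not given, so which of its ends is the start was not assigned. Replicate 1 had peaks at 86814306 to 86815989 (fold 8.13) and 86817553 to 86819643 (fold 8.69), and replicate 2 a single peak at 86823218 to 86828116 (fold 4.33). None of the bases under peaks in replicate 1 were under a peak in replicate 2. CD8B thus showed H3K27me3 over the gene in both replicates with no shared position, like CD4, and no EZH2 or JARID2.

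**Figure D5:**
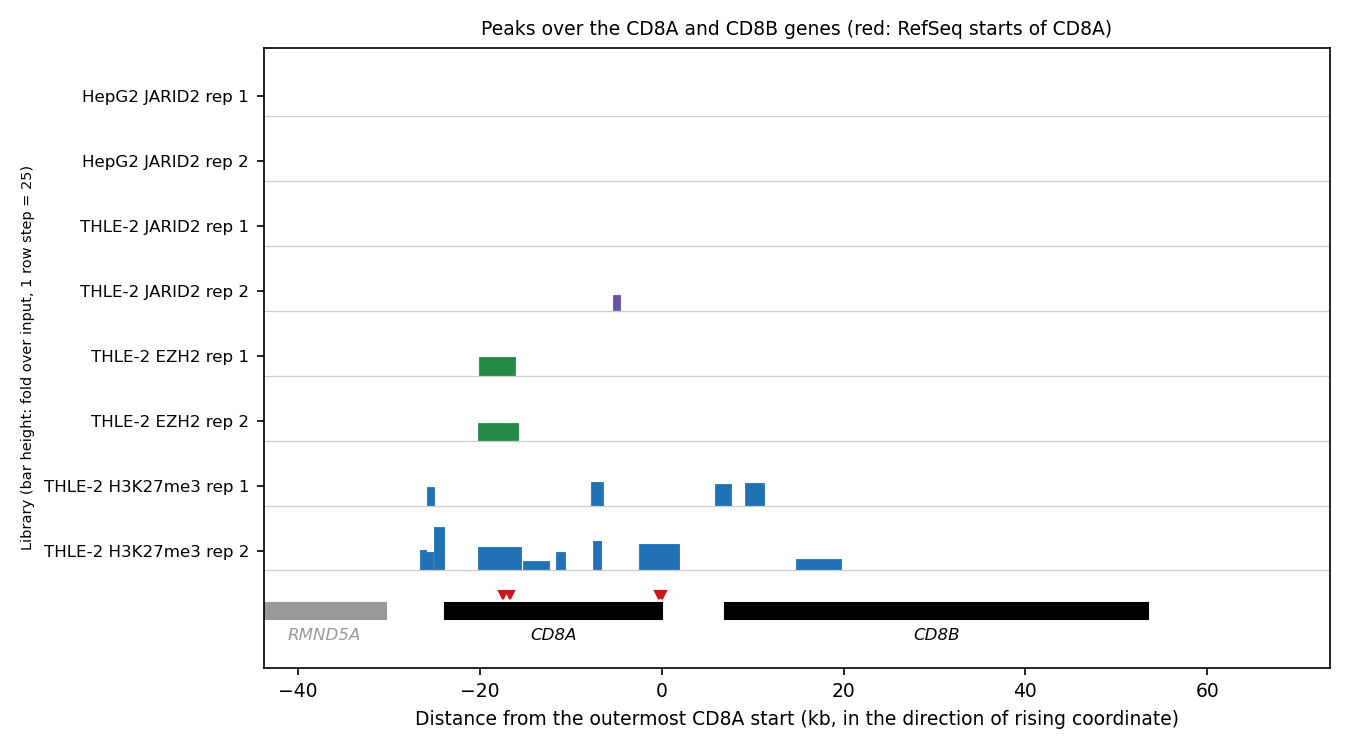
Deposited peaks around CD8A and CD8B by distance from the outermost CD8A start (horizontal axis, kb) in the 8 libraries (rows), bar height giving fold over input. Red marks are the CD8A starts. The EZH2 peaks (7.19 and 6.69) and an H3K27me3 replicate 2 peak (9.04) stand over the internal starts, and H3K27me3 replicate 1 has none there.

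The H3K27me3 replicates shared most covered bases at the CD3 genes and none at CD4 and CD8B. Of the bases covered in replicate 1, 100% were also covered in replicate 2 at CD3D, 90.2% at CD3G, 88.2% at CD3E, 80.5% at CD247 and 74.4% at CD8A. At CD4 and CD8B it was 0%. Over the whole list the figure was 62.2%. Seen from replicate 2, the shared part was 83.6% at CD3D, 84.7% at CD3G, 73.7% at CD3E, 60.6% at CD247 and 9.94% at CD8A, against 37.3% over the list. Of the 19 replicate 1 peaks at these genes 15 overlapped a replicate 2 peak, with a median of 123 bp between nearest summits. Over the list 72.1% of replicate 1 peaks overlapped one, with a median of 218 bp.

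CD79A and CD79B, the signalling chains of the B cell receptor, had no peak in any library. CD79A on chromosome 19 (41877279 to 41881372) and CD79B on chromosome 17 (63928740 to 63932331) are 4.09 and 3.59 kb long. Coverage was not tested against gene length. Marked genes were not far from CD79A: CEACAM3, LYPD4 and DMRTC2, 24.9 to 65.7 kb away, had H3K27me3 at a gene end in both replicates, with 69.4%, 91.3% and 99.2% of bases covered in replicate 1 and 82.7%, 68.2% and 0.998% in replicate 2. ARHGEF1, an exchange factor gene 1.81 kb from CD79A, had 19.9% and 12.3% of its bases under EZH2 in replicates 1 and 2. The nearest peak to CD79A itself was a HepG2 JARID2 peak 10.5 kb away (fold 9.48), and the nearest to CD79B an H3K27me3 replicate 2 peak 11.5 kb away (fold 10.53), within 2 kb of an end of the growth hormone gene GH1. A gene without a deposited peak is one where the caller found none at its p cutoff of 1e-05, not one shown to lack the mark.

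JARID2 peaks over these genes came from 1 library in each line. HepG2 replicate 1 had a peak in the CD247 body at 167480797 to 167481398 with a fold of 8.92 and 14 tags (FDR 0.66%). It lay inside an H3K27me3 peak of THLE-2 replicate 1 (167480570 to 167483194). THLE-2 replicate 2 had JARID2 peaks in the CD247 body with folds of 7.28 and 9.35, from 12 and 16 tags, and in the CD8A body with a fold of 5.94 from 17 tags, all at an FDR of 42.2% to 44.6%. The HepG2 and THLE-2 peaks in CD247 lay apart, and no peak was found in HepG2 replicate 2 or THLE-2 replicate 1.

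The number of genes with a JARID2 peak over the body or within 2 kb was 1 and 0 in the HepG2 libraries, against 37.5% and 6.92% of all protein-coding genes. It was 0 and 2 in the THLE-2 libraries, against 13.9% and 13.6% of all genes. With 9 genes, counts of 0 to 2 in THLE-2 are near those shares. The means were 0.5 genes in HepG2 and 1 in THLE-2, a difference of -0.5 that an exact two-sided permutation test over the 4 libraries did not separate (p = 1, where 0.3333 is the smallest such a design allows). Both replicates together gave 0 of 9 in HepG2, against 4.13%, and 0 of 9 in THLE-2, against 4.02%. Within 2 kb of a gene end, 0 of 9 had JARID2 in any library, against 22.5% and 0.716% of all genes in HepG2 and 4.21% and 4.38% in THLE-2. In both replicates together the shares of all genes were 0.165% in HepG2 and 0.356% in THLE-2, low enough that a count of 0 of 9 says little.

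Other genes of the lymphocyte programme were counted by the same rule, an H3K27me3 peak at a gene end in both replicates, to be read against 6.75% of all genes. It held for 3 of 24 genes of T cell receptor signalling, among them LCP2, an adaptor phosphorylated after receptor binding (folds 19.79 and 16.24), and the adaptor GRAP2 (8.21 and 7.02). It held for 5 of 24 genes of B cell receptor signalling, led by CR2, a complement receptor of B cells (14.97 and 18.97), FCRL3 (14.0 and 14.95) and BLNK, the B cell linker (10.62 and 16.17). Of 40 lymphocyte co-stimulatory and surface genes 10 had it, among them CTLA4, the inhibitory receptor that competes with CD28 (10.14 and 17.78), and ICOS (11.59 and 12.52). B cell genes other than CD79A and CD79B thus carried the mark in both replicates.

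Constant-region genes of the antigen-binding chains had it in 2 of 15, IGLC1 (12.19 and 8.49) and IGLC2 (14.5 and 4.19). These near-identical copies can share reads, and their placement from uniquely mapped reads is uncertain. Natural killer and cytotoxic genes had it in 3 of 20, with GZMA, a granule protease, at 19.31 and 15.76, and myeloid genes in 5 of 22, with S100A8 at 9.76 and 10.1. Lymphoid transcription factors had it in 6 of 32, with POU2AF1, a B cell co-activator, at 11.4 and 14.14, and IRF4 at 13.04 and 10.53. EZH2 at a gene end in both replicates was found in 11 of these 32 factors, against 4.88% of all genes. They include PAX5, which fixes B cell identity (11.78 and 8.23), BCL11B, which does so for T cells (12.3 and 8.11), and GATA3 (9.76 and 9.44). Of the other listed genes outside the 9, NCAM1 alone had EZH2 there (9.78 and 4.41).

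CD3D's pattern of gene-end calls over the 8 libraries was H3K27me3 in both replicates and nothing else. It was shared by 950 other genes, so that 4.76% of all genes had it. CD3G, CD3E, CD247 and CD8A were among them. The pattern leaves out peaks in the body, where CD8A had EZH2 and JARID2 and CD247 had JARID2. Nearest to CD3D in fold, by the summed absolute log2 ratio over these 2 libraries, was CD3G at 0, which shares its peak. It was followed by TAC3, the precursor of neurokinin B, at 0.0967 (folds 22.21 and 13.38), CXCR2, a chemokine receptor of neutrophils, at 0.183 (23.66 and 13.74), BPI, a neutrophil granule protein, at 0.195, and KCNN3, a potassium channel, at 0.207. Of 44 other protein-coding genes within 100 kb of the 9, 3 had H3K27me3 at a gene end in both replicates, all 3 in the CEACAM3 group near CD79A. At the CD3 locus, MPZL3, ATP5MG and KMT2A had none, MPZL2, 40.4 kb from CD3E, had a gene-end peak in replicate 2 alone (7.26% covered), and JAML, a junctional adhesion molecule gene 79.7 kb from CD3E, had 35.1% and 44.5% of its bases covered without a gene-end peak in replicate 1.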

How the data were processed

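The members and gene lists were chosen with earlier results of these data known. Tools named in the submitters' processing notes are MACS 1.4.2, Bowtie2 and cutadapt, and the build is GRCh38. No source used here gives a version for the aligner. Per the file headers, the authors ran MACS on uniquely mapped reads, each IP library with its matching input as control. The p cutoff was 1e-05, duplicate tags beyond 1 at a position were dropped, and the deeper of IP and input was scaled down. The authors deposited 1 list per IP library. Each gives, per the file headers, tag counts, a score (minus 10 times log10 p), a fold (a ratio to local background) and an FDR in percent. Folds are the authors' values and were used only within a list.

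Peaks were overlapped with RefSeq genes of GRCh38.p14 by at least 1 bp, with Python 3.11.15 and pandas 2.3.3. The overlap code was tested on simulated peaks. The gene table has no strand, so strand was used only where the promoter table gave it. No count model was fitted: the lists hold no tags outside peaks. The genes named are the 9 members, neighbours within 100 kb, up to 4 genes a list by the worse of their 2 ranks in H3K27me3 fold, and the 5 genes nearest to CD3D in fold. Others were named after their values were seen, namely the EZH2 examples and NCAM1. Alternatives were other windows, stricter scores, equal list lengths, overlap by 50% of a peak and leaving out each replicate.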

Additional observations from a re-analysis of the deposited data

How the results depend on the processing

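No paired analysis was possible because the replicate number pairs an IP library with its own input alone. The results are counts of deposited peaks, and the only test made was the exact permutation of the 4 JARID2 libraries. Leaving out either replicate gave 6 genes with H3K27me3 at an end (5 with both required), 7 over the gene, 0 with EZH2 at an end and 1 over the gene. It gave 0 to 2 genes for JARID2 over the gene in THLE-2 (2 without replicate 1) and 0 to 1 in HepG2 (1 without replicate 2), and 0 at an end in both lines. The median H3K27me3 coverage of 31.6% ran from 7.47% without replicate 2 to 40.6% without replicate 1. With the 2081 top-scoring peaks of each list, H3K27me3 was left at 0 genes at an end, 1 over the gene and a median of 0% covered, since most H3K27me3 peaks are then gone. With 50% of the peak required inside the window, 3 genes kept H3K27me3 at an end. A 5 kb window gave 1 gene with EZH2 at an end, where the window reaches the internal CD8A peak. The JARID2 difference (HepG2 minus THLE-2) was 0 with a 5 kb window and with a score of at least 100. Over libraries left out it ran from -1.5 to 0.5 and reversed to 0.5 without THLE-2 replicate 2. The other 63 recomputed values stayed within 1.5 times the count or within the spread between replicates. An exact permutation test of 2 libraries against 2 cannot go below 0.3333, and the depth of IP and input limits which peaks could be called.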
